A study of Mus musculus with 26 samples.

Results

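RNA polymerase II (Pol II) was compared over gene bodies between 24 h and 36 h after partial hepatectomy, the interval in which the regenerating mouse liver enters S phase. The genes described are those whose Pol II signal was above 0.5 in the 24 h library, the 36 h library or both, on a scale of deposited signal per base pair of gene body. Of 21133 measured genes, 4654 met this rule and are called members: 3831 were above 0.5 at 24 h, 3744 at 36 h and 2921 at both. The assay was ChIP-seq, in which an antibody pulls down a protein with the DNA it sits on and that DNA is sequenced and mapped. All livers came from male wild-type C57BL6/J mice of 7 weeks that had lost 3 of 5 liver lobes. The lobes taken at surgery gave the 0 h library, and whole livers left after surgery gave the libraries of 3, 8, 16, 24, 36, 48 and 168 h. Each time had 1 Pol II library, made with the antibody AC-055-100. Livers of 5 mice were taken per time, and whether they were pooled is not stated. Without replicates no test could be made, and each value below describes these libraries.

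Pol II is the enzyme that transcribes protein-coding genes, and its density along a gene body is commonly read as a measure of how actively the gene is being transcribed. After partial hepatectomy the remaining hepatocytes leave quiescence, pass through G1 while they go on making plasma proteins and metabolizing nutrients, and then copy their DNA in a fairly synchronous first S phase. Entry into S phase is driven in large part by E2F transcription factors, which act on the genes of replication licensing, nucleotide supply and histones. The liver also has a strong daily rhythm of transcription, and the 24 h and 36 h libraries are 12 h apart within the day. Regeneration and time of day therefore cannot be told apart in this comparison.

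A difference is the log2 of the 36 h signal minus the log2 of the 24 h signal, each with values below 0 set to 0 and 0.5 added, so differences of weak genes are understated. Genes differing by 1 or more, that is at least 2-fold on this scale, are called higher or lower at 36 h. Libraries were scaled to each other on 1472 genes above 0.5 in all 8, which moved every 36 h minus 24 h difference by -0.42, so differences are relative to those genes. Read counts were not part of the files, which leaves the depth of each library unknown. From 38.4% to 50.6% of the entries of a library were below 0. Hepatocyte identity was plain in both libraries: all 14 hepatocyte markers were members, with albumin (Alb) at 78.3 and 92.6 and Apoa1 at 204 and 249 at 24 and 36 h. Of markers of other cells, 0 of 13 for lymphocytes, 0 of 7 for cholangiocytes, 1 of 14 for stellate cells, 1 of 7 for neutrophils, 4 of 14 for endothelium, 7 of 15 for Kupffer cells and 2 of 8 for erythroid cells were members. Of the erythroid markers 1 was called, Klf1, a transcription factor of red cell precursors, which went from -0.968 to 2.02, while the globin gene Hbb-b1 was below 0 in both libraries. The summed signal of the Kupffer list was 3.97 at 24 h and 5.03 at 36 h, that of the erythroid list 0.947 and 2.29, that of the endothelial list 24.7 and 20.6, and that of the hepatocyte list 574 and 538. In whole tissue, fewer cells of a type and less Pol II per cell cannot be told apart.

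Over the 4654 members the median difference was -0.04, with quartiles of -0.49 and 0.53 and a range from -2.97 to 4.05. At 36 h 627 members were higher, 13.5% of members and 2.97% of measured genes, and 263 were lower, 5.65% of members and 1.24% of measured genes. Counts given for a gene list below are to be read beside these shares. The 627 higher genes had a median signal of 0.66, 0.87, 0.45, 0.84, 0.03, 1.30, 0.60 and -0.18 at 0, 3, 8, 16, 24, 36, 48 and 168 h. The 24 and 36 h values chose these genes and are given as a description. Among the 6 libraries that did not enter the choice, 168 h had the lowest median. Against the mean of the 16 h and 48 h libraries, the times on either side, 318 members were higher at 36 h (6.83%) and 78 were lower (1.68%). Both comparisons share the 36 h library. Both also use the members, chosen by their 24 or 36 h signal, 823 of them by 36 h alone. Genes high only at 16 or 48 h could not enter, which tilts these counts toward higher genes. Each gene group below is given with its difference from 24 h and with its difference from the mean of 16 and 48 h, a second value chosen after the data had been seen. Values of a gene over the 8 libraries are listed in the order 0, 3, 8, 16, 24, 36, 48 and 168 h.

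**Figure D1:**
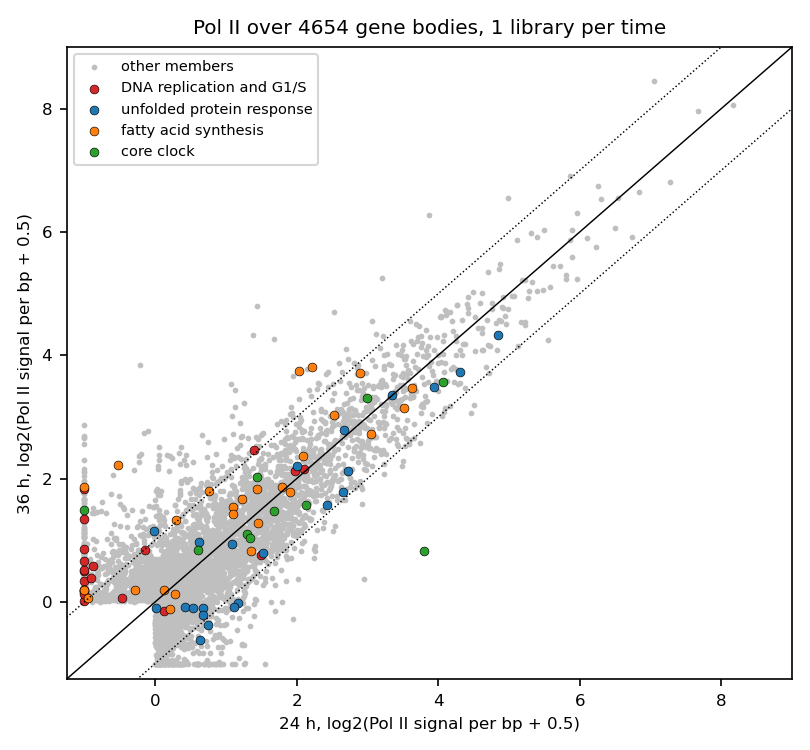
Each point is 1 of the 4654 members, with log2(signal per bp + 0.5) at 24 h on the x axis and at 36 h on the y axis. The solid line marks equal signal, the dotted lines a difference of 1 in either direction, and points on the left and lower edges at -1 had a signal of 0 or less. Replication genes (red) lie mostly above the upper dotted line at the left edge, unfolded protein response genes (blue) mostly below the solid line.

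Of 56 measured DNA replication and G1/S genes 16 were higher at 36 h and 0 were lower. That is 28.6% of the measured genes of the list, beside 2.97% of all measured genes. The median over all 56 was 0.54, and it was 0.62 against the mean of 16 and 48 h, where 15 members were higher and 0 lower. The list had 22 members, 5 above 0.5 at 24 h and 21 at 36 h. Most became members through the 36 h library, so their median, 1.18, is high by that choice. Of the 56 measured genes, 42 had a signal at or below 0 at 24 h and 10 at 36 h. The 36 h library was the highest of the 8 for 41 of the 56, beside 9.16% of all measured genes. For 15 of the 22 members the 7 other libraries were all at or below 0.5.

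Genes of nucleotide supply and licensing showed the pattern most plainly. Rrm2, at chr12:25393649-25398972 in mm9, encodes the regulated subunit of ribonucleotide reductase, which makes the deoxynucleotides for DNA synthesis. Its signal over the 8 libraries was 0.106, -0.537, -0.0790, -0.333, -0.303, 3.05, 0.216 and 0.0224, a difference of 2.83 from 24 to 36 h. Cdt1, at chr8:125092416-125097028, loads the MCM helicase on replication origins, and its signal was -0.316, -0.796, -1.58, -0.788, -2.02, 2.06, -1.16 and -3.49, a difference of 2.35. Both genes were below 0.5 in every library but that of 36 h. Gmnn encodes geminin, the inhibitor of Cdt1, and had a signal of -0.197, -0.218, -0.0571, -0.0648, 0.0314, 0.804, 0.0432 and -0.00173. Its difference was 1.30, with its highest signal in the same library as that of its target.

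The helicase subunit genes Mcm2, Mcm3, Mcm5 and Mcm6 were below 0 at 24 h and just above the level of 0.5 at 36 h. Mcm4 went from -0.137 to 0.431, which left it short of that level and no member. Mcm5 had a signal of -0.620, -0.701, -0.437, -0.401, -0.373, 0.639, -0.325 and -0.612, a difference of 1.19. Differences were 1.18 for Mcm2, 1.20 for Mcm3, 1.02 for Mcm6 and 1.07 for Mcm7, and the 36 h signal of Mcm6, 0.512, is close to the level that makes a gene a member. Mcm7 was the one subunit with a clear signal at all times, 4.13, 3.05, 2.14, 2.81, 2.14, 5.03, 2.68 and 1.20 over the 8 libraries. Its body ends 611 bp from that of Cops6, a gene of the COP9 signalosome on the opposite strand whose signal went from 0.295 to 2.31. ChIP carries no strand, so the 2 genes' Pol II could run into each other there. The helicase partners Cdc45l, the former name of Cdc45, and Gins2 had differences of 1.52 and 1.67.

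Polymerases and their cofactors followed. Pold1, the catalytic subunit of polymerase delta, went from -1.35 to 0.615, and Pola2, a subunit of polymerase alpha, from 0.0449 to 0.990. Pola2 was as high at 0 h, with 0.881, and E2f1 likewise had 0.721 at 0 h beside 0.761 at 36 h. Pcna, the sliding clamp of the polymerases, had a signal of -0.142, -0.128, 0.245, -0.0622, 0.404, 1.29, 0.436 and 0.229. Its difference of 0.99 was just short of 1, and 36 h was its highest library. Uhrf1, which guides maintenance of DNA methylation on newly copied DNA, had a signal of -0.697, -0.572, -0.574, -0.477, -0.797, 1.31, -0.414 and -1.0, a difference of 1.86. Dnmt1, the methyltransferase it recruits, was named after its values were seen, and its signal was -0.361, -0.465, -0.446, -0.321, -0.593, 0.685, -0.316 and -0.968.

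Some members of the list did not follow. Tk1, thymidine kinase, had 3.80 at 24 h and 3.95 at 36 h, a difference of 0.05. E2f8, a repressing member of the E2F family, had 3.44 and 3.85. Ccne2, cyclin E2, and Mcm10, a replication initiation factor, had differences of -0.27 and -0.73, which turn to 0.32 and 0.39 against the mean of 16 and 48 h. The body of Ccne2 overlaps that of Ints8, and its signal was near the level of 0.5 in both libraries. Rpa2, which coats single-stranded DNA, was on the side of most of the list, with a difference of 1.13.

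**Figure D2:**
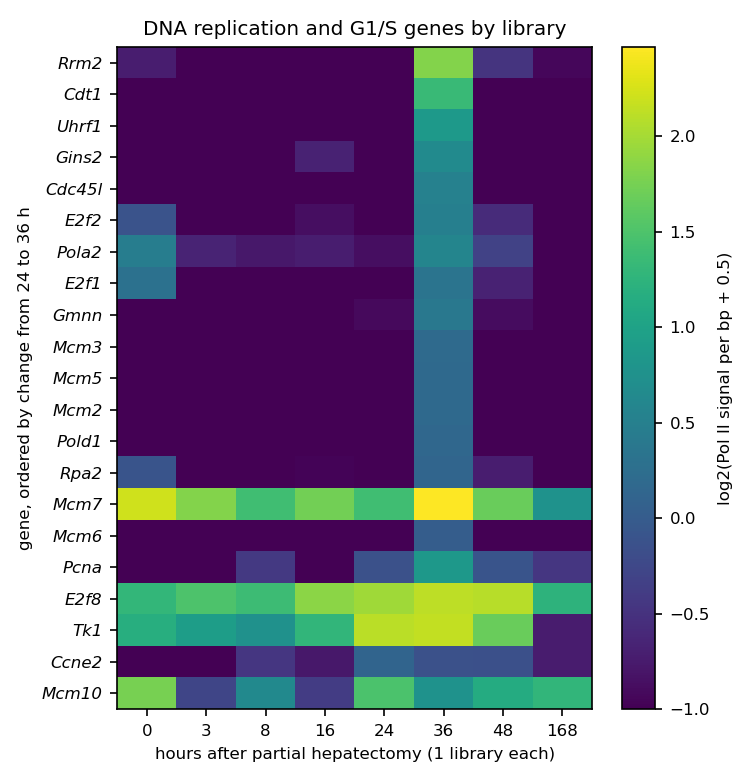
Colour gives log2(Pol II signal per bp + 0.5) for 21 of the 22 members of the replication and G1/S list (rows, ordered by difference) in the 8 libraries (columns, hours after surgery), and the darkest colour, at -1, marks a signal of 0 or less. The 36 h column is the brightest of its row from Rrm2 down to Pcna, by little over 0 h for Pola2, E2f1 and Rpa2, while Tk1 and E2f8 are equally bright at 24 h.

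Promoters of these genes are shown because E2F letters were common in them. The member rule did not use these letters, but the list holds genes of the kind on which E2F factors act. A high share in the list was therefore likely beforehand and was not a test. E2F proteins recognise a short GC-rich sequence, and the letters TTTCCCGC, TTTCGCGC, TTTGGCGC and TTTGCCGC were searched on both strands of windows from 250 bases before to 50 bases after the gene start. These forms were found in 2.26% of 32851 RefSeq promoter windows and in 4.35% of 3497 members with a window. They were found in 20 of the 45 replication list genes with a window (44.4%) and in 8 of its 18 members with one (44.4%). The share was thus the same in the members as in the whole list. These letters were also in 7.97% of 439 genes higher at 36 h and in 1.08% of 185 lower genes. Windows were available for 75.1% of members. A match describes letters, not a bound site, and whether the GC content of the windows differed between these groups was not tested. The 200 bases before the start of 4 members with a match upstream of the start follow, from RefSeq GRCm38.p6, 5′ to 3′ on the gene's strand. Matching letters are in capitals, and where 2 matches overlap only the first is.
Mcm5, chr8:75109309-75109508, plus strand: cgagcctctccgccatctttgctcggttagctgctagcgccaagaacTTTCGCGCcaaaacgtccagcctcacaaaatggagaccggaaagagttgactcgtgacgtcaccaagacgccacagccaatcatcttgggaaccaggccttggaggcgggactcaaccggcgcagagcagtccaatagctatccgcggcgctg
Mcm6, chr1:128359706-128359905, minus strand: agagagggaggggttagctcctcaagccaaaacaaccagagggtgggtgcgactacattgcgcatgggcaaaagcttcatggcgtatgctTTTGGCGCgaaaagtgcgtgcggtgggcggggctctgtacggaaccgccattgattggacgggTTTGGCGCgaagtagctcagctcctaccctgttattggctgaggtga
Mcm7, chr5:138171884-138172083, minus strand: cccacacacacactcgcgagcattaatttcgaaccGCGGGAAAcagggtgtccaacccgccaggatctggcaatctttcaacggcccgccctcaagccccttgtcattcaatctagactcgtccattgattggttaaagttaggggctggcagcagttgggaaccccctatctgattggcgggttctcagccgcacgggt
Uhrf1, chr17:56304113-56304312, plus strand: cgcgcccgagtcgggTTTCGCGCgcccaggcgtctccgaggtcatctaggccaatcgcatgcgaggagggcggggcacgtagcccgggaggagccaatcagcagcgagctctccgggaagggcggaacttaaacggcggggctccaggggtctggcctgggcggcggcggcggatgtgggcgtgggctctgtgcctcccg
Mcm5 and Uhrf1 have the same 8 letters, TTTCGCGC. Mcm6 has TTTGGCGC at 2 places, 110 and 47 bases before the start. Mcm7 has the reverse complement of TTTCCCGC 165 bases before the start. In Cdt1, E2f2, Mcm3 and Pold1 the matches lay after the start.

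Histone genes, which package new DNA and are transcribed mainly in S phase, were hard to measure. Of 80 histone gene entries, 45 ended before they began as entries of the shortest genes do in these files, and 17 were measured. Of these 17, 11 were members, 8 were higher at 36 h and 0 were lower, beside 2.97% of all measured genes higher. The 8 were all among the 931 shortest members, of which 25.1% were higher. The median over the 17 was 0.73. Against the mean of 16 and 48 h the median was 0.65, with 5 members higher and 0 lower. H2afx, the variant that is phosphorylated at DNA breaks, had a signal of -0.425, 3.96, 6.24, 4.59, 2.22, 27.5, 11.1 and -2.55, a difference of 3.36. H2afz, the variant found at promoters, had -0.229, -0.676, -0.106, -0.0678, -0.600, 2.54, 0.818 and -0.324, a difference of 2.60. Hist1h3d, a replication-dependent H3 gene, had -1.44, -1.73, 0.654, -0.834, 0.368, 4.77, 3.28 and -0.581. All 3 had their highest signal at 36 h, and 48 h came next. The replacement H3 genes H3f3a and H3f3b, which are made throughout the cell cycle, had differences of 0.52 and 0.40. Replication-dependent and variant histone genes were not cleanly split. The variant gene H2afz differed by 2.60, while Hist1h2bc differed by only 0.11 and was highest at 48 h. Hist1h1d differed by 1.25 but was highest at 168 h. The histone list was chosen after earlier values had been seen.

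G2/M and mitosis genes were mostly below the level of 0.5. Of 43 measured, 7 were members, 1 of them above 0.5 at 24 h, and 5 were higher at 36 h and 0 lower. The 5 are 11.6% of the measured genes of the list, beside 2.97% of all measured genes. All 7 were above 0.5 at 36 h, so most became members through that library. The median over all 43 was 0.12 against 24 h and 0.05 against the mean of 16 and 48 h, where 2 members were higher. The 36 h library was the highest of the 8 for 24 of the 43, beside 9.16% of all measured genes, and the 48 h library for 7. Ube2c, the ubiquitin-conjugating enzyme of the anaphase-promoting complex, had a signal of -0.502, -0.207, 0.0970, -0.0672, -0.589, 1.22, 0.544 and -0.437. Cdc2a, the former name of Cdk1, had 0.00457, -0.136, 0.461, -0.0519, 0.240, 1.26, 0.850 and 0.558. Cdc20, an activator of the anaphase-promoting complex, had 1.43 at 36 h and 2.03 at 48 h, and Aurka, a mitotic kinase, 0.954 and 1.14, so these 2 were higher still in the later library. The body of Cdc20 lies close to that of Elovl1 on the opposite strand, a gene described below. Of the 63 genes whose 36 h signal exceeded every other library by 1 or more, 11 were on the replication list and 0 on the mitosis list. The 63 were 0.298% of measured genes, so 0 of 43 is near that share. Spc24 and Cenpm, described below, were in the set without being on the list.

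Some genes of the G1 response and some immediate early genes were higher at 36 h than at 24 h, and 0 members of either list were higher than the mean of 16 and 48 h. Of 18 measured D cyclins and CDK inhibitors, 7 were members, 4 were higher (22.2% of those measured, beside 2.97% of all measured genes) and 0 lower. The median over the 18 was 0.12 against 24 h and 0.05 against the mean of 16 and 48 h. Cdkn1a encodes p21, the CDK inhibitor induced by p53 and other signals, and had a signal of 1.84, 7.11, 1.89, 8.66, -0.116, 3.80, 2.81 and -0.465. Its difference was 3.10 against 24 h and -0.36 against 16 and 48 h. Of 23 measured immediate early genes, 14 were members, 5 were higher (21.7% of those measured) and 0 lower. The median over the 23 was 0.14 against 24 h and 0 against 16 and 48 h, and over the members it turned from 0.74 to -0.25. Jun, a subunit of the AP-1 transcription factor, had a signal of 46.8, 37.6, 7.99, 6.09, -0.566, 6.79, 11.1 and -3.16, and its direction turned from 3.87 to -0.26. Both Cdkn1a and Jun were below 0 at 24 and 168 h and in no other library. Beside Jun the higher genes were Btg2, an antiproliferative gene (1.34), Myc, a growth-promoting transcription factor (1.28), Fos, the AP-1 partner of Jun (1.18), and Egr1 (1.14). Of 18 measured p53 target genes 6 were members and 4 were higher (22.2% of those measured), Cdkn1a and Btg2 among them. Their list had a median over the 18 of 0.02 against 24 h and 0 against 16 and 48 h, where 0 were higher. Cebpb, which encodes C/EBPbeta, had 56.5, 381, 66.2, 83.8, 14.2, 77.2, 40.5 and 13.9, a difference of 2.41 that shrank to 0.40 against 16 and 48 h.

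**Figure D3:**
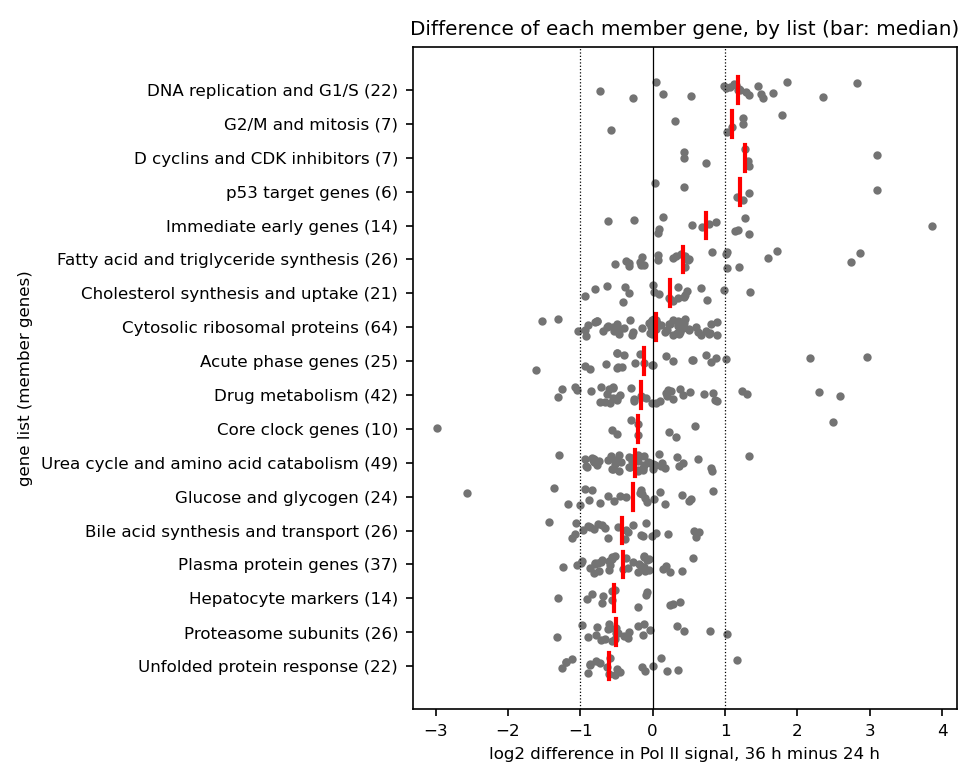
Each grey point is the difference of 1 member gene (log2, 36 h minus 24 h, x axis) in 18 gene lists (y axis, number of members in brackets), red bars are list medians and dotted lines mark 1 and -1. Over members, the replication list has a median of 1.18, high because most of them became members through the 36 h library, and the unfolded protein response list one of -0.60, beside -0.04 over all members.

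The 63 genes that stood highest at 36 h by 1 or more were 0.298% of measured genes. The same count was 314 for the 0 h library, 256 for 3 h, 66 for 168 h, 32 for 16 h and 27 for 24 h, and it was only 1 for 8 h and 3 for 48 h, so 36 h had the most such genes of the libraries between 8 and 48 h. This set, its margin included, was chosen after values had been seen, and 20 of the 63 have clone or model names. Beside replication genes it held Tcf19, a growth-regulated gene expressed at the G1/S boundary, which had the widest margin, 2.66, over the next library. It also held the kinetochore and centromere genes Spc24 and Cenpm, with 1.12 and 1.07 at 36 h and values below 0 in the 7 other libraries, and the lamin gene Lmnb2.

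The set also held genes of small-molecule metabolism. Cyp26a1 and Cyp26c1 encode enzymes that clear retinoic acid, and lie 4891 bp apart by their measured bodies on chromosome 19, at chr19:37772845-37776018 and chr19:37760671-37767953. Cyp26a1 had a signal of 0.278, -1.14, -1.19, -0.366, -0.565, 3.28, -1.07 and -1.85 and Cyp26c1 had -0.370, -0.503, -0.366, 0.0477, -0.0545, 2.90, -0.0257 and -1.57. In both, the 36 h library alone was above 0.5. Cyp3a11, at chr5:146666003-146690940, is the main inducible cytochrome P450 of mouse liver for drugs and bile acids, and its signal was 2.18, -0.0717, 1.61, 1.53, 2.69, 18.7, 1.86 and 4.48. Its difference was 2.59, with 36 h above the next highest library by 1.95. Gstm3, a glutathione transferase, had -0.397, -0.309, -0.171, 0.0268, 0.0525, 2.21, -0.0754 and -0.276. Close relatives of both Cyp3a11 and Gstm3 exist in the genome, and the sources used here do not say how reads shared with copies were treated, so these values are uncertain. Other pairs in the set that lay within 10 kb of each other were Crip3 with the organic anion transporter gene Slc22a7, 415 bp apart, Tssk4 with 1810034K20Rik, 5446 bp apart, and 2 clone-named genes that overlap.

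The drug metabolism list as a whole was split. Of 61 measured genes 42 were members, 4 were higher and 4 lower, and the median was -0.15, which becomes 0.19 without scaling between libraries. Against the mean of 16 and 48 h the median was 0.55, with 15 higher and 0 lower. Ephx1, microsomal epoxide hydrolase, and Gstp1, a glutathione transferase, had differences of 1.31 and 1.23. Cyp2e1, the ethanol-inducible P450, was the largest difference in the other direction, with 47.4, 18.6, 31.8, 29.2, 46.4, 18.4, 35.04 and 50.4, a difference of -1.31. The other lower genes were Ugt2a3, Ugt2b5 and Mgst1, conjugating enzymes with differences of -1.25, -1.07 and -1.04.

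Of 33 measured genes of fatty acid and triglyceride synthesis 26 were members, 8 were higher at 36 h and 0 lower. The 8 are 24.2% of the measured genes of the list, beside 2.97% of all measured genes. They are 8 of 26 members, beside 13.5% of all members. Of the members 18 had differences above 0 and 8 below. The member median was 0.42 against 24 h and 0.50 against the mean of 16 and 48 h, where 10 were higher and 0 lower. Fasn, fatty acid synthase, had a signal of 9.38, 8.91, 8.11, 7.04, 4.14, 13.5, 4.65 and 9.89, a difference of 1.59, and 36 h was its highest library. Thrsp, a lipogenic regulator that responds to thyroid hormone and carbohydrate, had 21.7, 31.3, 3.72, 0.271, 3.58, 12.9, 1.78 and 11.8, a difference of 1.72. Scd1, the desaturase that makes oleate, had 0.0180, 6.72, 0.140, -0.175, -0.0184, 3.15, 0.105 and 0.627, so it was near 0 at 16, 24 and 48 h and high at 3 and 36 h. Elovl1, an elongase of very long chain fatty acids, had 1.10, 0.0983, 1.95, 0.230, 0.194, 4.15, 4.54 and 0.150 and was as high at 48 h. Its body, at chr4:118102807-118104877, lies close to that of the mitosis gene Cdc20, at chr4:118105509-118109399 on the opposite strand. Whether Pol II of either gene ran into the other was not tested, so these 2 higher genes may not be independent. Acaca and Acacb, the acetyl-CoA carboxylases, had differences of 1.03 and 1.20, Slc25a1, the mitochondrial citrate carrier, 1.03, and Pgd, of the pentose phosphate pathway, 1.02. Srebf1, the transcription factor that drives these genes, went from 6.91 to 12.6, a difference of 0.82. Cholesterol synthesis genes differed less. Of 24 measured 21 were members, 1 was higher and 0 lower, with a median of 0.24 and one of 0.12 against 16 and 48 h, and the higher gene was Mvk, mevalonate kinase, at 1.35.

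**Figure D4:**
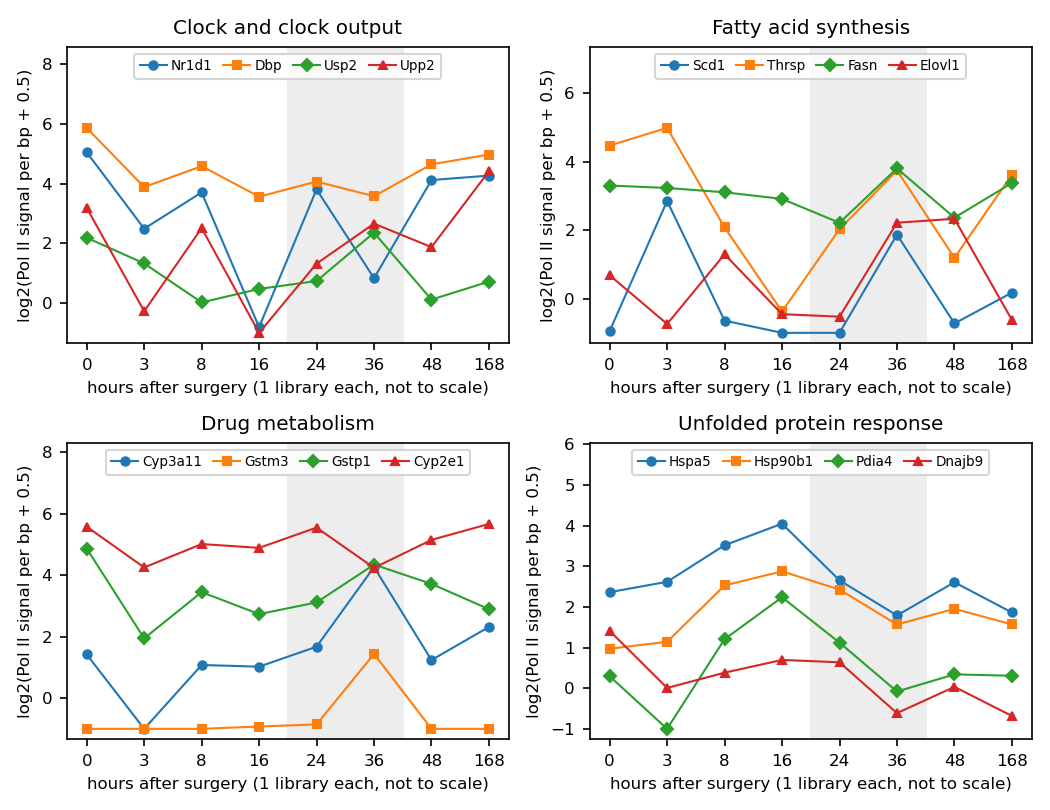
The y axes give log2(Pol II signal per bp + 0.5) in the 8 libraries (x axes, hours after surgery, evenly spaced rather than to scale), with 24 and 36 h shaded and lines joining the values of 1 gene. Nr1d1 is low at 16 and 36 h, Cyp3a11 and Gstm3 are highest at 36 h, and the 4 chaperone genes are lower at 36 h than at 24 h.

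Core clock genes held the largest downward difference of all members, that of Nr1d1. The list had 20 measured genes and 10 members, of which 1 was higher and 1 lower at 36 h, with a member median of -0.20 that becomes 0.13 without scaling between libraries and 0.28 against the mean of 16 and 48 h. Nr1d1, at chr11:98629248-98636053, encodes REV-ERBalpha, the repressor that shuts off the positive arm of the clock for part of each day, and had a signal of 32.5, 5.11, 12.5, 0.0704, 13.5, 1.28, 16.8 and 18.7. Its difference was -2.97. The libraries at whole days after surgery, 0, 24, 48 and 168 h, were all above the other 4, and Nr1d1 was the one gene among the 10 clock members with this order. The labels do not give the hour of surgery.

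The following clock members differed by less than 1. Differences were 0.59 for Per1 and -0.20 for Per2, the period repressors, and -0.20 for Cry2, their partner. Dbp, a clock-driven activator, had 57.6, 14.2, 23.4, 11.3, 16.2, 11.4, 24.5 and 30.8, a difference of -0.49, while the related factors Tef and Nfil3 had -0.30 and -0.57. The differences of Per2, Cry2 and Tef turn positive without scaling and against the mean of 16 and 48 h. Bhlhb2, a clock repressor now named Bhlhe40, had 0.32 and Gm129, now named Ciart, had 0.23. The other 10 measured clock genes, Arntl, Clock, Npas2, Per3, Cry1, Nr1d2, Rora, Bhlhe41, Csnk1e and Hlf, were at or below 0.5 in both libraries, with differences between -0.51 for Clock and 0.46 for Arntl. Of 31 measured clock output genes of the liver 20 were members, 4 were higher and 0 lower, with a member median of 0.23, and 0.34 against 16 and 48 h. The higher genes were Cdkn1a, Avpr1a, a vasopressin receptor (1.66), Usp2, a deubiquitinase (1.62), and Upp2, a uridine phosphorylase (1.34). Usp2 had a signal of 4.05, 2.003, 0.512, 0.886, 1.16, 4.61, 0.581 and 1.14, highest at 36 h with 0 h next. Among heat shock and cold-inducible genes 12 of 14 measured were members and 1, the cold-inducible Cirbp, was higher, at 1.58. The member median was -0.27, and 0.21 against 16 and 48 h.

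Unfolded protein response genes encode chaperones and folding enzymes of the endoplasmic reticulum. Of 28 measured 22 were members, 21 above 0.5 at 24 h and 13 at 36 h, and 4 were lower at 36 h and 1 higher, while 17 had differences below 0 and 5 above. The 4 are 14.3% of the measured genes of the list, beside 1.24% of all measured genes. Only members can be called, and they are 4 of 22 members, beside 5.65% of all members. The median was -0.47 over all 28. The member median was -0.60 against 24 h and -0.70 against the mean of 16 and 48 h, and it was -0.25 without scaling between libraries. Dnajb9, a co-chaperone, had a signal of 2.16, 0.504, 0.803, 1.12, 1.06, 0.154, 0.523 and 0.123, a difference of -1.25. Pdia4, a disulfide isomerase, had 0.726, -0.326, 1.81, 4.21, 1.68, 0.445, 0.766 and 0.737, a difference of -1.20, and its relative Pdia3 differed by -1.20. Sel1l, of the machinery that exports misfolded proteins, differed by -1.12. Both major chaperones of the compartment were short of a difference of 1. Hspa5, or BiP, had 4.65, 5.64, 10.96, 16.05, 5.80, 2.96, 5.59 and 3.14, a difference of -0.86, and Hsp90b1, or GRP94, one of -0.86. Of the 22 members, 14 had their highest signal at 16 h and 0 at 36 h. Ppp1r15a, or GADD34, which ends the translational block of the stress response, was the higher gene, at 1.17, and Ddit3, or CHOP, had 0.20.

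Their promoters are shown because they carry the element for which this response is known. The endoplasmic reticulum stress response element, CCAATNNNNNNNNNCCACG, is read by NF-Y at the CCAAT end and by ATF6 and XBP1 at the CCACG end. It was searched on both strands of the same 300-base windows and was present in 0.119% of all windows, in 10 of 27 list genes with a window and in 9 of the 21 members with one. The windows of the 185 lower genes held 0. The 150 bases before the start follow for 3 lower-lying members and for Syvn1, a ubiquitin ligase with a difference of 0.12, again from RefSeq GRCm38.p6 with the outer letters of the element in capitals.
Hspa5, chr2:34771940-34772089, plus strand: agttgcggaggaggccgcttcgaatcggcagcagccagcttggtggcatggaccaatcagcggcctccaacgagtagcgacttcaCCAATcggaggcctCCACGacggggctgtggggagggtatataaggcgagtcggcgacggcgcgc
Hsp90b1, chr10:86705445-86705594, minus strand: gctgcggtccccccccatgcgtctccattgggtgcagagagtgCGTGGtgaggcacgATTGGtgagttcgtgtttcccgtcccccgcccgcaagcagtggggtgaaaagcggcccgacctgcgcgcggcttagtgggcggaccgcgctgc
Canx, chr11:50325674-50325823, minus strand: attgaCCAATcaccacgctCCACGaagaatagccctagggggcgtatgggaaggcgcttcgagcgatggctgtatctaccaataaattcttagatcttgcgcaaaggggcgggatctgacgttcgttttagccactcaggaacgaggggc
Syvn1, chr19:6046426-6046575, plus strand: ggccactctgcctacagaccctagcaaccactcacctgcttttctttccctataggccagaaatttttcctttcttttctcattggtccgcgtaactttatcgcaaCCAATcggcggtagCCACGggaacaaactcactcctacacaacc
Canx, which encodes the lectin chaperone calnexin, had a difference of -0.89. The 9 members with the element had differences from that of Canx up to 0.35, that of Derl3, which serves in the degradation of misfolded proteins. Creld2, a chaperone with the element in its window, had a signal of 0.478, 9.15, 5.10, 14.4, 0.505, 0.433, 1.32 and -1.23. It was at its peak at 16 h and at the level of 0.5 in both the 24 h and the 36 h library.

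Proteasome subunit genes had a median of -0.51 against 24 h but 0.03 against the mean of 16 and 48 h. Of 31 measured 26 were members, 25 above 0.5 at 24 h and 14 at 36 h, with 1 higher, Psmb6 at 1.03, and 1 lower, Psma6 at -1.32. All 64 measured cytosolic ribosomal protein genes were members, with a median of 0.05, one of 0.32 against 16 and 48 h, 0 higher and 3 lower. Among the lower ones were Rps27a (-1.53) and Rpl26 (-1.03), and Rps29 of the small subunit, which is not on the list, differed by -2.10. Ribosomal protein genes have many processed copies, so these values are uncertain.

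Most genes of the differentiated hepatocyte differed by less than 1. Of 41 measured plasma protein genes 37 were members, 32 of them below 24 h, with a median of -0.42, 0 higher and 2 lower, the coagulation factor genes F11 (-1.23) and F5 (-1.04). Of 30 measured genes of bile acid synthesis and transport 26 were members, with a median of -0.42, 0 higher and 4 lower. These 4 were the uptake transporters Slco1b2 (-1.43) and Slco1a1 (-1.06), the phospholipid exporter Abcb4 (-1.11) and the hydroxysteroid dehydrogenase Akr1c6 (-1.07). Against the mean of 16 and 48 h the medians of these lists were -0.22 and 0.05, and without scaling between libraries they were -0.12 and -0.09. Cyp7a1, the rate-limiting enzyme of bile acid synthesis, went from 3.72 to 5.80.

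For glucose and amino acid genes the direction of the median depended on the comparison. Of 33 measured glucose and glycogen genes 24 were members, 0 higher and 4 lower, with a member median of -0.27 that becomes 0.11 without scaling between libraries and 0.15 against the mean of 16 and 48 h. Ppp1r3c, the glycogen-targeting subunit of protein phosphatase 1, had 7.60, 1.35, 2.18, 2.91, 7.22, 0.801, 2.11 and 6.68, and its difference of -2.57 was the second largest downward of all members. Also lower were Ugp2, which makes UDP-glucose for glycogen (-1.36), and Fbp1 of gluconeogenesis (-1.16). Of 51 measured urea cycle and amino acid catabolism genes 49 were members, with 1 higher, 1 lower and a median of -0.25 that becomes 0.09 without scaling and 0.25 against 16 and 48 h, where 4 were higher and 0 lower. Tdo2, which breaks down tryptophan, differed by -1.29, and Cps1, the first enzyme of the urea cycle, by -0.91. Of 36 measured fatty acid oxidation and fasting genes 22 were members, 1 higher and 3 lower, with a median of -0.40, and -0.36 against 16 and 48 h. Among the lower ones were Bdh1, which interconverts the ketone bodies (-1.13), and Acaa1a, a peroxisomal thiolase (-1.17).

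Of 27 measured acute phase genes 25 were members, 3 higher and 1 lower, with a median of -0.12 that becomes 0.28 without scaling. Against the mean of 16 and 48 h the median was -0.76, with 0 higher and 8 lower. Hp, haptoglobin, had 34.1, 694, 226, 165, 92.4, 92.97, 197 and 52.8, and Fga, a fibrinogen chain, had 8.59, 106, 109.7, 87.00, 55.3, 39.1, 113 and 16.3, so that both were higher at 48 h than at 24 or 36 h. The 3 higher genes were Saa2 (2.96), Saa1 (2.18) and Orm2 (1.02), which belong to clusters of near-identical copies. The lower gene was Cd14, a receptor for lipopolysaccharide (-1.61). Liver transcription factors and nuclear receptors had 29 members of 37 measured, with a median of -0.33 that becomes 0.08 without scaling and -0.02 against 16 and 48 h, and Hnf4a, a master regulator of the hepatocyte, had 11.2 and 10.4. In that list Cebpb was higher and Tbx3, a T-box repressor, was lower (-1.35).

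The study mapped C/EBPalpha and C/EBPbeta, basic leucine zipper factors of hepatocytes, at the same times, so binding near the members could be read beside Pol II. A C/EBPbeta region lay within 1 kb of the start of 28.6% of members at 24 h and 46.3% at 36 h, from lists of 34098 and 31658 regions, and of 14.3% and 24.8% of all measured genes. Among the 627 higher genes the share was 20.9% at 24 h (Wilson 95% interval 17.9% to 24.2%) and 41.3% at 36 h (37.5% to 45.2%). Among the 263 lower genes it was 22.4% (17.8% to 27.9%) and 33.8% (28.4% to 39.8%). Members that were neither had 30.3% and 48.0%, so within 1 kb the share was lower in both called groups than in the other members in each list. Within 10 kb the shares at 24 h were 56.3% of higher, 57.8% of lower and 68.0% of other members. At 36 h they were 77.5%, 63.9% and 78.1%, so at that distance higher genes were close to the other members. For C/EBPalpha the shares within 1 kb at 24 and 36 h were 15.6% and 27.8% in higher genes, 20.5% and 22.1% in lower genes and 25.1% and 33.9% in the others. These came from lists of 29847 and 27061 regions. Of the 56 replication list genes, 7 (12.5%) had a C/EBPbeta region that near at 24 h and 27 (48.2%) at 36 h, the latter close to the 46.3% of all members, and for C/EBPalpha 5 and 11. The nearest C/EBPbeta region was 2791 bp from the start of Rrm2 at 24 h and 268 bp at 36 h. For Uhrf1 it was 14854 bp and 465 bp, and for Cyp3a11 1544 bp and 36 bp. Other genes showed no such approach: it was 16009 bp and 16005 bp for Mcm5, 2921 bp and 2926 bp for Mcm2, 224 bp and 205 bp for Mcm3, and 10432 bp and 16044 bp for Mcm10. Each list is 1 library, and the intervals cover the number of genes only. Egr1 peaks, mapped at 36 h, lay within 1 kb for 2.55% of higher, 4.94% of lower and 3.64% of other members.

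The 10 largest upward were Tssk6, Jun, Cldn3, AC158618.5, AC109139.15, Prtn3, H2afx, Fzd7, Zbtb12 and Tssc4, and the 10 largest downward were Nr1d1, Ppp1r3c, Pnma1, Wdr5b, AL645695.18, Gstk1, Rps29, Ssr4, RP23-316C11.4 and AC131780.5-7, leaving out model names and any gene that overlaps one already named. Tssk6, a kinase gene known from testis with a body of 832 bp, had the largest difference, 4.05, from a signal of 0.618, 4.18, 2.72, 3.26, 0.366, 13.8, 7.17 and -1.58. Cldn3, a tight junction gene whose body overlaps Wbscr25, had 33.1, 2.81, 2.62, 5.79, -0.441, 5.93, 4.08 and -3.16, so 24 and 168 h were its only libraries below 0. Of the downward genes, Gstk1, a glutathione transferase of peroxisomes and mitochondria, had 0.0581, -0.351, 0.0600, 0.401, 1.68, -0.121, 0.176 and 0.0268, with 24 h the one library above 0.5. Ssr4, of the translocon-associated protein complex, had 0.527, 0.627, 1.05, 1.68, 1.63, -0.00334, 0.209 and 0.832.

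Differences depended on gene width. Among the 931 shortest members, 500 to 2645 bp, 25.1% were higher and 13.3% lower, with a median difference of 0.24. Among the 931 longest, of 22715 bp or more, 3.33% were higher and 2.58% lower, with a median of -0.28. Median widths were 8184.5 bp for members, 3932 bp for higher and 2823 bp for lower genes. Of the higher genes 13.7% had a body overlapping another measured gene, beside 10.8% of members. In families that liver does not use, such as olfactory receptors, 15 of 261 measured genes were members, with 4 higher and 8 lower, and their highest signals were 1.32 at 24 h and 1.06 at 36 h. Of 2334 members above the higher of these, 309 (13.2%) were higher and 115 (4.93%) lower, close to the shares over all members. At the edges of the rules, AI451557 entered with 0.5002 and Cox6b1 stayed out with 0.4993. Hspa1l counted as higher with 1.004 and Aif1, with 0.9999, did not, while Ang counted as lower with -1.0004 and Phyh, with -0.9993, did not.

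**Figure D5:**
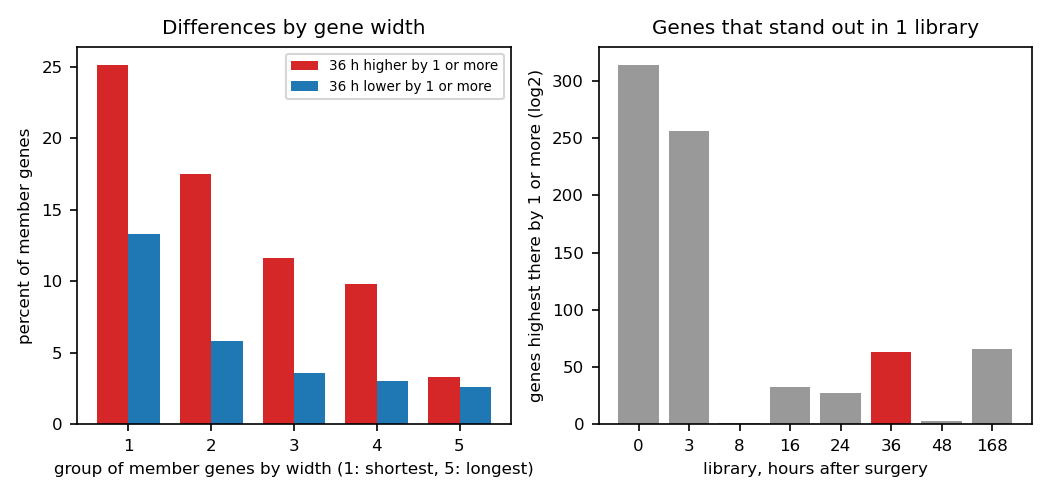
Left, bars give the percentage of members higher (red) or lower (blue) by 1 or more at 36 h, in 5 equal groups of gene width from the shortest to the longest. Right, bars count the measured genes whose signal in 1 library exceeded all others by 1 or more on the log2 scale, with 63 at 36 h (red).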

How the data were processed

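Pol II ChIP-seq was deposited for 8 times with 1 library each. The submitters' processing notes list MACS 1.4.1, Bowtie 0.12.7 and the build mm9 without saying what each was used for. The deposited Pol II files hold a signed signal per gene entry, of another unit than counts, which by its values grows with gene width and has a background taken off. No source used here states whether or how the authors scaled it across libraries. The deposited C/EBP and Egr1 region lists carry the authors' score, which was used only to rank regions within a list. The mock sample was not analysed here.

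Of 31804 gene entries 6603 end before they start. The 21133 measured genes have a width of 500 bp or more and a unique name. Signal was divided by width, scaled by the median ratio over 1472 genes above 0.5 in all 8 libraries, set to 0 where negative, and taken as log2 with a pseudocount of 0.5. The steps were tested on simulated data with differences planted only in genes of clear signal. Genes near the level of 0.5 or below 0 were not covered by that test. With 1 library per time no test, p-value or replicate error can be given, and a batch and a time cannot be told apart. Gene starts were taken 500 bp before the deposited bodies. Promoter windows, 250 bases before to 50 after a start, came from RefSeq GRCm38.p6 by gene symbol or unique older name. Windows were available for 75.1% of members, and promoter GC content was not compared between groups. Gene width was compared, which cannot stand in for promoter GC content. Python 3.11.15, numpy 2.4.6 and pandas 2.3.3 were used.

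The members, gene lists and comparisons were chosen with earlier results of these data known. Named genes are the 10 largest differences in each direction, skipping model names and genes that overlap one already named, in each list up to 4 members with the largest differences of 1 or more or else the 2 with the highest mean signal, all measured core clock genes and all member genes of the replication list. Some genes that this rule names are not reported here. Other genes named were chosen after their values were seen. Alternatives were pseudocounts of 0.1 and 2, other scalings, background, filters, widths and sizes of difference, and, added later, gene width, overlaps, a filter on the mean and the comparison without the 24 h library.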

Additional observations from a re-analysis of the deposited data

How the results depend on the processing

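No paired analysis was possible because each time has 1 library, and leaving out a replicate was not possible for the same reason. The 627 higher genes became 110 with a pseudocount of 2, 976 without scaling and 390 at a level of 1. At a difference of 1.5 they were 226. Alternatives chosen after seeing the data gave 318 against the mean of 16 and 48 h, over the same members. They gave 340 for genes whose mean over the 8 libraries was above 0.5. The 263 lower genes became 705 with a pseudocount of 0.1, 10 with a pseudocount of 2, 156 without scaling, 160 at a level of 1, 60 at a difference of 1.5, 78 against 16 and 48 h and 118 by mean level. Other settings kept both counts within 1.5 times. Higher genes were 70.4% of called genes, and 55.3% with a pseudocount of 0.1, 91.7% with 2 and 86.2% without scaling.

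The replication list's member median of 1.18 was 0.43 with a pseudocount of 2 and 0.10 by mean level, a filter that removes genes high in 1 library, and above 1 in the other settings but that without a filter, 0.54. Of the named genes that differed by 1 or more, 6 turned direction, in each case against 16 and 48 h: Jun to -0.26, Cdkn1a to -0.36, Orm2 to -0.76, Slco1a1 to 0.094, Akr1c6 to 0.073 and Abcb4 to 0.019. Of those that differed by less, 9 turned against 16 and 48 h, 6 against genes of like width and 5 without scaling. Against like-width genes 553 were higher and 315 lower. The cause of these shifts was not tested. Depth is unknown, so signals near 0.5, such as those of the MCM genes, have no error that can be given.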
